A study of Mus musculus with 30 samples.

Results

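The livers described here came from male mice given 1,4-dichlorobenzene (DCB, a chlorinated solvent used in mothballs and toilet blocks) and differ in whose receptors they carry. They are the 6 arrays labelled with DCB in hCAR/hPXR and in WT mice, of 30 arrays in the series, chosen by their sample titles, and all genes were compared directly between the 2 genotypes. The tested livers were from hCAR/hPXR mice, in which mouse CAR and PXR are humanised, and the livers they were set against were from WT mice with the mouse receptors. Both genotypes were adults on a C57BL/6J background, received 600 mg/kg DCB by oral gavage daily for 3 days, and their livers were taken one day after the last dose. The same contrast in corn oil livers, with 3 hCAR/hPXR and 3 WT arrays (0 mg/kg, 3 days), shares no array with the DCB contrast and is given beside it. In places, 3 DCB arrays of CARko/PXRko mice, which are deleted for both receptors, are given for their levels alone. Each treatment group held 5 mice by the series' own design, and 3 arrays stand for it here. Whether every array is a different mouse is left unsaid by the labels, so the spread that the p-values rest on may be technical. Also unsaid is what drives the human receptors, and the probe sets are annotated to mouse genes, so transcripts of the human receptors were not measured.

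CAR and PXR are nuclear receptors that pair with the retinoid X receptor, bind repeated hexamers near their target genes and switch on enzymes and transporters that clear drugs and other foreign compounds. In mouse liver Cyp2b10 is the usual marker of CAR and Cyp3a11 that of PXR. The human and mouse receptors differ in which compounds activate them, and mice with the human receptors are used to ask which part of a rodent response the human receptor can drive.

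Values are log2 RMA signals of the mouse Affymetrix probe sets, and each difference is hCAR/hPXR minus WT ± SE from a limma fit to all 30 arrays, with p-values adjusted over 12795 genes by the Benjamini-Hochberg method. A gene is called here at an adjusted p under 0.05. Array medians lay between 5.36 and 5.44 and the highest signal on any array between 15.21 and 15.34, which bounds what can be read at either end. Agreement within groups was uneven: the mean correlation of an array with its group was 0.966, 0.970 and 0.951 for hCAR/hPXR replicates 1, 2 and 3 under DCB, and 0.983, 0.985 and 0.984 for the WT replicates. Replicate 3 of the hCAR/hPXR livers stood farthest from its group, and differences and list medians that moved by over 1.5 times without it are given both ways. All 10 tested hepatocyte markers were bright, with a summed log2 signal of 130.5 to 133.5 in hCAR/hPXR livers and 133.0 to 134.0 in WT livers. Of these 10, 9 had negative differences under DCB, and 2 lay below WT without overlap (all genes: 6.53% below). Their median was -0.08 (-0.02 without hCAR/hPXR replicate 3). The number of arrays limits the precision, and the median SE of a difference was 0.186.

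Under DCB, 5 of 12795 genes (0.0391%) were called between the genotypes. All 5 were lower in hCAR/hPXR livers: Nr1i3, Nr1i2, Tmem223, Uox and Pik3c3. Leaving out 1 array gave 45 calls without hCAR/hPXR replicate 2 (27 of them higher), 11 without WT replicate 1, 4 without hCAR/hPXR replicate 1 or WT replicate 2, and 3 without hCAR/hPXR replicate 3 or WT replicate 3. At an unadjusted p under 0.05 there were 1061 genes (8.29%), of which 399 (3.12%) were higher and 662 (5.17%) lower in hCAR/hPXR livers. Differences ran over all genes between -3.54 and 2.91, with a median of -0.03, and 37 genes were at least 1 log2 unit higher while 66 were at least 1 log2 unit lower. For 558 genes (4.36%) all 3 hCAR/hPXR arrays lay above all 3 WT arrays, and for 836 (6.53%) all 3 lay below. These percentages are the background against which the counts of non-overlapping genes below are to be read. The drug-metabolizing genes that lead this contrast by size are among the uncalled ones.

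**Figure D1:**
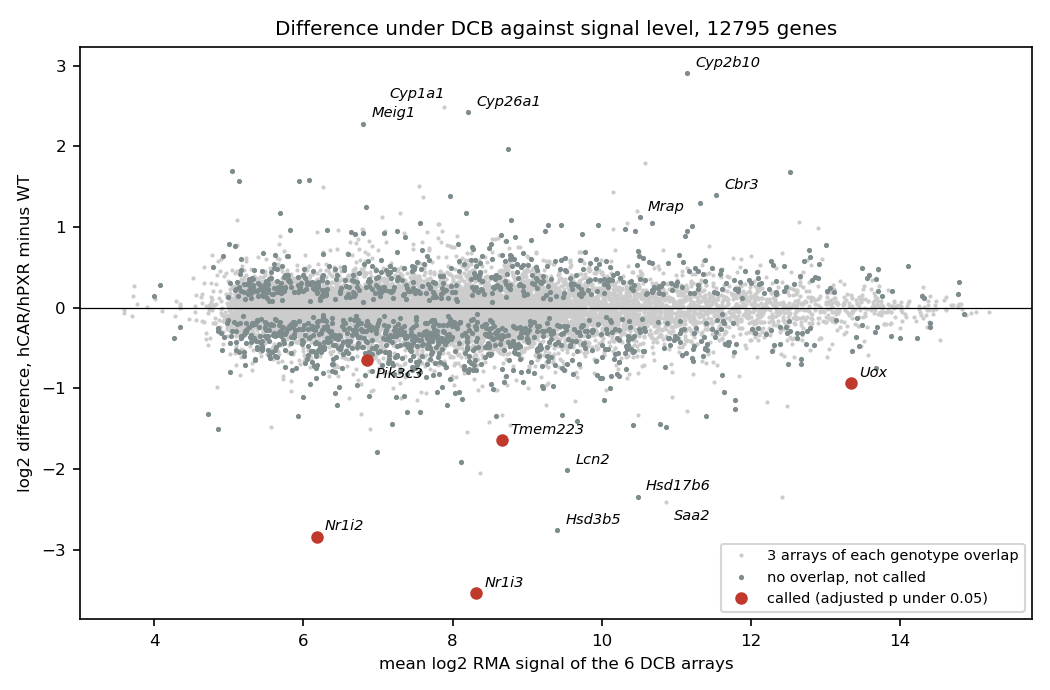
Difference between hCAR/hPXR and WT livers under DCB (log2, vertical) against the mean log2 RMA signal of the 6 DCB arrays (horizontal), one point per gene. The 5 called genes lie below 0, while Cyp2b10, Cyp1a1 and Cyp26a1 are the 3 highest points and none of them was called.

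The receptor genes themselves gave the largest falls. Nr1i3, which encodes mouse CAR, had signals of 6.56, 6.82 and 6.26 in hCAR/hPXR livers, against 9.75, 10.60 and 9.90 in WT livers. Every hCAR/hPXR array lay far under every WT array, and Nr1i3 fell by 3.54 ± 0.21 in hCAR/hPXR livers (11.6-fold, limma adjusted p = 1.81e-10). This is a lower bound, since livers without the gene read about as high as the hCAR/hPXR livers. Nr1i2, which encodes mouse PXR, had signals of 4.57, 4.73 and 4.97 in hCAR/hPXR livers, against 7.24, 7.85 and 7.69 in WT livers. It fell by 2.84 ± 0.23 (limma adjusted p = 4.99e-08), and since the hCAR/hPXR signals lay under the array medians its difference is a lower bound as well. A second probe set of Nr1i2 gave a difference of -2.60. Under DCB the CARko/PXRko livers, which have neither receptor gene, read 6.51, 6.23 and 6.16 for Nr1i3 and 4.25, 4.44 and 4.53 for Nr1i2, next to the hCAR/hPXR values. The difference in corn oil livers was -3.29 for Nr1i3 and -2.74 for Nr1i2, and the change in the difference under DCB was -0.25 ± 0.30 and -0.09 ± 0.33. The mouse receptor genes thus read as the labels say in all 12 of these arrays. Rxra, the retinoid X receptor gene whose product pairs with both, was at -0.35 ± 0.28 with overlap (-0.14 without hCAR/hPXR replicate 3). Another Rxra probe set, above the array median on all 30 arrays, gave 0.10.

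Tmem223, the gene of a mitochondrial inner membrane protein, was the third gene that fell under both DCB and corn oil. Its signals were 8.13, 7.74 and 7.65 in hCAR/hPXR livers, against 9.56, 9.34 and 9.54 in WT livers. It fell by 1.64 ± 0.13 (3.13-fold, limma adjusted p = 3.68e-08). In corn oil livers its difference was -2.07, and the DCB-treated CARko/PXRko livers, at 9.71, 9.73 and 9.75, read just above the WT arrays. Low Tmem223 was thus seen in the hCAR/hPXR livers of these 3 DCB groups and not in the other two. Of the 3 nearest tested genes on either side of Nr1i3, Nr1i2 and Tmem223 in the RefSeq gene order, none was called, and for 1 the groups did not overlap. That gene was Tomm40l, a relative of a mitochondrial import channel that lies next to Nr1i3 and is named here after its values were seen. Its signals were 9.52, 9.35 and 8.96 in hCAR/hPXR livers, against 8.55, 8.42 and 8.23 in WT livers, a difference of 0.88 ± 0.20 (limma adjusted p = 0.124). Under corn oil the difference was 0.81, again without overlap.

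Uox and Pik3c3 made up the rest of the calls, and both differed little under corn oil. Uox encodes urate oxidase, the liver enzyme that breaks down uric acid in mice. It read 13.05, 13.25 and 12.30 in hCAR/hPXR livers, against 13.58, 13.78 and 14.06 in WT livers, and fell by 0.94 ± 0.17 (1.92-fold, limma adjusted p = 0.0277). Replicate 3 was the lowest of the hCAR/hPXR arrays, and without it Uox fell by 0.66 with an adjusted p of 0.118. Corn oil livers read 14.17, 13.87 and 13.95 in hCAR/hPXR mice and 14.16, 14.15 and 14.19 in WT mice. Pik3c3 encodes the lipid kinase Vps34, which acts in autophagy and endosome traffic. Its signals were 6.39, 6.64 and 6.56 in hCAR/hPXR livers, against 7.06, 7.15 and 7.31 in WT livers, and it fell by 0.64 ± 0.12 (1.56-fold, limma adjusted p = 0.0277). The groups did not overlap under DCB, whereas the corn oil difference was 0.02. Leaving out hCAR/hPXR replicate 1 or 3, or WT replicate 2 or 3, ended the call of Pik3c3, and the same held for Uox without hCAR/hPXR replicate 3, WT replicate 2 or WT replicate 3. The difference from corn oil was -0.77 ± 0.24 for Uox and -0.66 ± 0.16 for Pik3c3, and neither was called in that comparison.

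The genes closest to the threshold without passing it are named here after their values were seen. Mrap, an accessory protein of melanocortin receptors, read 11.24, 10.94 and 11.02 in hCAR/hPXR livers, against 10.24, 10.05 and 9.56 in WT livers (1.12 ± 0.22, limma adjusted p = 0.0537). Cast, which encodes the calpain inhibitor calpastatin, read 8.05, 8.26 and 7.48 in hCAR/hPXR livers, against 8.57, 8.64 and 8.90 in WT livers (-0.77 ± 0.15, limma adjusted p = 0.0537). Meig1, a gene known for its part in sperm formation, read 7.03, 7.97 and 8.82 in hCAR/hPXR livers, against 5.67, 5.75 and 5.56 in WT livers. Its difference of 2.28 ± 0.49 (4.87-fold, limma adjusted p = 0.111) was among the highest of all genes, and under corn oil it was 0.80, also without overlap. Jade1, a subunit of a histone acetyltransferase complex, was at -0.67 ± 0.14 (limma adjusted p = 0.0872), and Dis3, a nuclease of the RNA exosome, at 0.75 ± 0.16 (limma adjusted p = 0.121), both without overlap. The groups of all these genes were separate on every array in the probe set used, yet none passed the threshold. Other probe sets above the array median on all 30 arrays gave -0.04 and -0.73 for Cast. For Jade1 they gave 0.01, -0.40 and -0.26. Without hCAR/hPXR replicate 2, Mrap (limma adjusted p = 0.0327), Cast (limma adjusted p = 0.00529) and Dis3 (limma adjusted p = 0.0115) were called, and without WT replicate 1 so was Mrap (limma adjusted p = 0.0294).

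**Figure D2:**
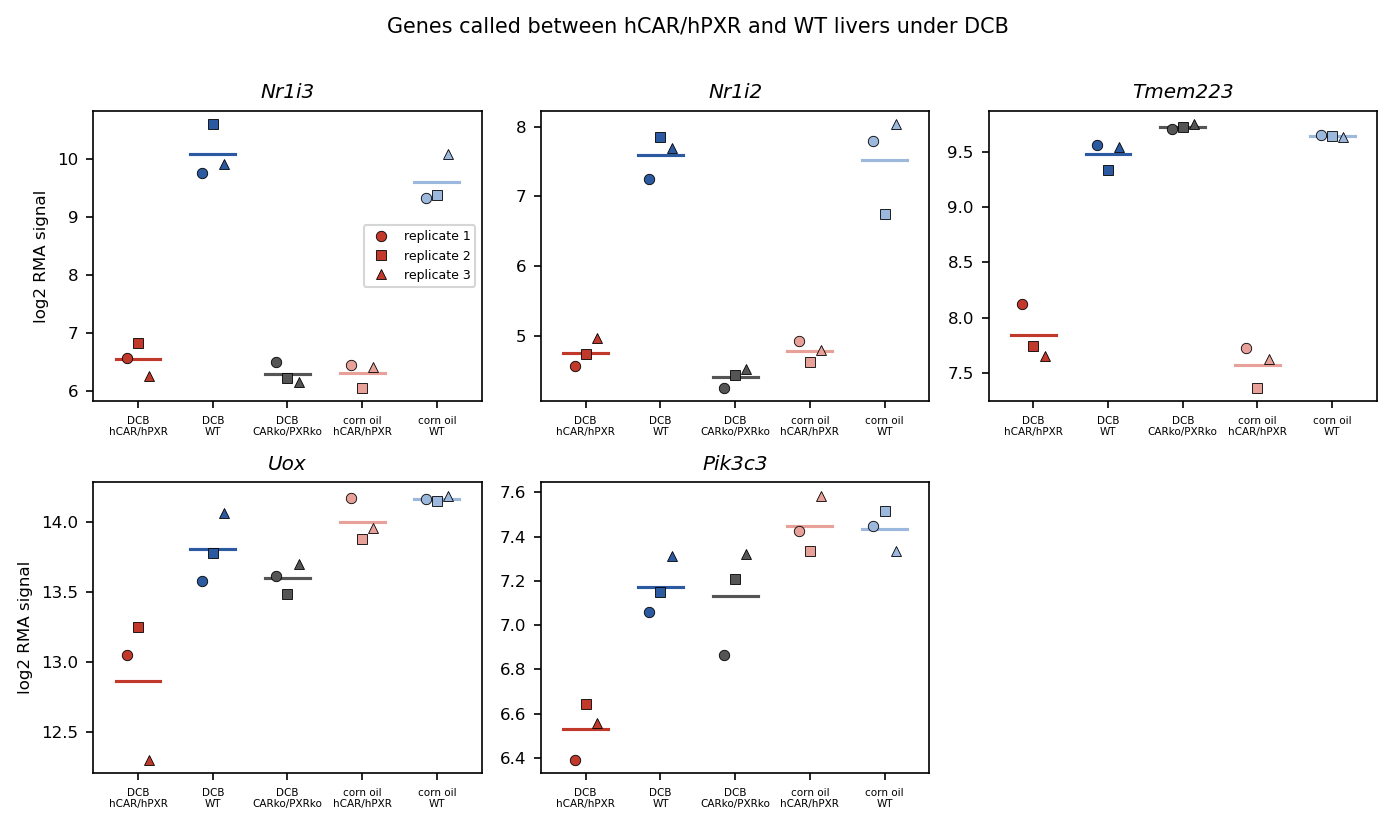
Signal of the 5 called genes on each array (log2 RMA signal), with the group mean as a line and the replicate given by the symbol shape. Nr1i3, Nr1i2 and Tmem223 separate hCAR/hPXR from WT livers under both DCB and corn oil, whereas Uox and Pik3c3 lie together in the corn oil livers.

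Among the drug-metabolizing genes none was called. Of 21 P450 genes outside the CYP2B, CYP2C and CYP3A families, 4 lay above the WT livers without overlap and 2 below, with a median difference of -0.17. The sign of this median rested on single arrays, as it was 0.02 without hCAR/hPXR replicate 3 and 0.05 without WT replicate 3. Cyp2b10 gave the highest difference of all genes. Its signals were 12.87, 12.65 and 12.29 in hCAR/hPXR livers, against 12.08, 9.59 and 7.40 in WT livers. The hCAR/hPXR arrays lay close to each other, whereas WT replicate 1 was nearly as high as they were and WT replicate 3 was the lowest. The difference was 2.91 ± 0.77 (7.51-fold) with an adjusted p of 0.214 by limma. It was 4.10 (adjusted p = 0.0113) without WT replicate 1, and 1.76 without WT replicate 3. A pair of further probe sets gave 3.03 and 2.76. Corn oil livers read 6.97, 6.01 and 6.24 in hCAR/hPXR mice and 5.29, 5.58 and 6.27 in WT mice, and the DCB-treated CARko/PXRko livers read 6.00, 5.66 and 6.04. Every hCAR/hPXR liver was therefore above every WT liver in Cyp2b10 under DCB, yet the size of the difference depended on which WT arrays were counted.

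Among the other CYP2B and CYP2C enzymes the genotypes were less apart. Cyp2c55, a relative of Cyp2b10 that also answers to CAR and PXR, had signals of 12.57, 12.73 and 10.88 in hCAR/hPXR livers, against 12.66, 10.59 and 11.09 in WT livers. These groups overlapped (0.61 ± 0.51, limma adjusted p = 0.786; between 0.19 without WT replicate 2 and 1.22 without WT replicate 1, and 1.21 without hCAR/hPXR replicate 3), and WT replicate 1 was again the highest of its group. Cyp2c37 was 0.99 ± 0.67 higher with overlap. Cyp2c23, which makes epoxides of arachidonic acid, lay the other way: 11.33, 11.54 and 10.72 in hCAR/hPXR livers, against 11.84, 11.92 and 12.35 in WT livers, a difference of -0.84 ± 0.29 that was not called. Of 11 tested CYP2B and CYP2C genes, 1 lay above and 1 below without overlap, and the median difference was 0.03, against -0.03 over all genes. It ran between -0.04 without hCAR/hPXR replicate 2 and 0.26 without WT replicate 3, and was 0.02 without hCAR/hPXR replicate 3.

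All 4 tested CYP3A genes, the family that oxidizes steroids and many drugs, had positive differences, and 3 of them did not overlap. Their median was 0.42 under DCB and 0.26 under corn oil, where 3 of 4 again lay above without overlap (all genes: 4.37% above and 4.83% below). Cyp3a11 read 14.93, 14.92 and 15.003 in hCAR/hPXR livers, against 14.56, 14.68 and 14.64 in WT livers. The difference of 0.32 ± 0.09 (limma adjusted p = 0.245) sat near the top of the array's range and was matched by 0.30 in corn oil livers. Cyp3a25 read 14.34, 14.35 and 14.41 in hCAR/hPXR livers, against 13.76, 13.95 and 13.82 in WT livers (0.52 ± 0.12, limma adjusted p = 0.124). Cyp3a44, which is dimmer, read 5.92, 6.02 and 6.93 in hCAR/hPXR livers, against 5.38, 5.31 and 5.31 in WT livers, and its difference was 0.96 ± 0.25, or 0.64 without hCAR/hPXR replicate 3. Cyp3a13 overlapped (0.33 ± 0.30), and its difference was -0.05 without hCAR/hPXR replicate 3. The DCB-treated CARko/PXRko livers read 13.95 to 14.41 for Cyp3a25, so their highest array was at the hCAR/hPXR level. They read 14.39 to 14.70 for Cyp3a11, 5.01 to 5.36 for Cyp3a44 and 10.98 to 12.15 for Cyp3a13. Members of this family have close sequence relatives, so a probe set may read more than 1 of them.

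Cyp26a1, which breaks down retinoic acid, had a lower adjusted p than any of these. Its signals were 9.56, 8.94 and 9.76 in hCAR/hPXR livers, against 6.85, 7.68 and 6.46 in WT livers. The lowest hCAR/hPXR array was well above the highest WT array, with a difference of 2.42 ± 0.50 (5.36-fold, limma adjusted p = 0.0872). With 1 of the DCB arrays left out the difference lay between 2.15 and 2.76. Cyp26a1 was called without hCAR/hPXR replicate 2 (2.66, limma adjusted p = 0.033), without the CARko/PXRko groups in the fit (limma adjusted p = 0.0129) and with array weights (limma adjusted p = 0.0164). Under corn oil it was 0.58, with signals of 7.39, 8.29 and 8.76 in hCAR/hPXR livers and 7.43, 7.49 and 7.77 in WT livers. The DCB-treated CARko/PXRko livers read 9.02, 6.96 and 7.64, so 1 of those 3 arrays lay within the hCAR/hPXR range.

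The stretches of genome just before these genes are shown because their transcripts lay above the WT level together, and because receptors of this kind bind in pairs to hexamers of the form AGGTCA or AGTTCA. The 250 bases before the start site are given 5′ to 3′ from RefSeq (GRCm38.p6), in lower case, with each copy of these hexamers on either strand in capitals (TGACCT and TGAACT are the same letters read from the other strand). They lie at chr5:145879855-145880104 (minus strand) for Cyp3a11, chr5:146009619-146009868 (minus strand) for Cyp3a25 and chr19:37697558-37697807 (plus strand) for Cyp26a1.
Cyp3a11: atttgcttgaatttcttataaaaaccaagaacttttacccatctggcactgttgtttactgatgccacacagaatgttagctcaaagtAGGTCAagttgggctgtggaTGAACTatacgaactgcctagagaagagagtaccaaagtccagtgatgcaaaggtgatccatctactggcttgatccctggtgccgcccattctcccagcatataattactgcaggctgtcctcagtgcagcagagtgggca
Cyp3a25: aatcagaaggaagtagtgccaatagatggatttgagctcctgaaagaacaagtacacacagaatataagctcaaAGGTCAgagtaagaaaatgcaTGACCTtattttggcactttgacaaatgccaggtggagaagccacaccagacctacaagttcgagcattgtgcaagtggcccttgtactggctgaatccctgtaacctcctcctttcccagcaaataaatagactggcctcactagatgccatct
Cyp26a1: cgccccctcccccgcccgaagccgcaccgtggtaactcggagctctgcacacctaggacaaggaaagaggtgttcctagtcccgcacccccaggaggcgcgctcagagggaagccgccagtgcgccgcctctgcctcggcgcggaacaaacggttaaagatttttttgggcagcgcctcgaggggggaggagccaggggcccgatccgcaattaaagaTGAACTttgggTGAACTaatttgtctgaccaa

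In Cyp3a11 the capitals mark AGGTCA 162 bases and TGAACT 142 bases before the start. In Cyp3a25 they mark AGGTCA 176 bases and TGACCT 155 bases before it. Cyp26a1 holds TGAACT 32 and 21 bases before the start, which on the other strand is AGTTCA repeated in the same direction with 5 bases between the copies. Of 32851 RefSeq promoter windows of 300 bases (250 before to 50 after a start), 16.3% held AGGTCA, 14% held AGTTCA and 27.7% held either on at least one strand, so a single copy is common. The spaced repeat was found in 8 of them (0.0244%). That share is for the letters and spacing seen in Cyp26a1 alone. Repeats with other letters, spacings or directions were not counted, so it does not measure how unusual this promoter is. Cyp3a44 and Ces2a each had 1 copy of AGGTCA, and Cyp2b10, Cyp2c55 and Cyp3a13 had neither hexamer in this window. A match describes letters in the window and was not tested as a binding site.

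Genes outside the P450 family that respond to CAR or PXR tended the same way. Of 15 tested, 14 had a positive difference and 6 lay above the WT livers without overlap, with a median of 0.48. The median was 0.26 without WT replicate 3 and 0.46 without hCAR/hPXR replicate 3. Under corn oil it was 0.10, with 5 above and 0 below. Ces2a, a carboxylesterase that cleaves esters in drugs and fats, read 13.42, 13.44 and 13.35 in hCAR/hPXR livers, against 12.71, 12.58 and 12.58 in WT livers. Its arrays hardly varied within a group, and the difference was 0.78 ± 0.20 (limma adjusted p = 0.214), next to 0.61 in corn oil livers. Gadd45b, a stress gene that binds CAR in mouse liver, read 9.27, 8.30 and 8.75 in hCAR/hPXR livers, against 7.62, 7.61 and 7.56 in WT livers (1.17 ± 0.35, limma adjusted p = 0.294). Its other probe sets gave 0.05 and 0.90. Papss2, which makes the sulfate donor for sulfation, was 0.59 ± 0.28 higher without overlap. The DCB-treated CARko/PXRko livers read 6.91, 8.51 and 8.75, from lowest to highest, for Gadd45b, so livers with neither receptor reached the hCAR/hPXR range. They read 10.90 to 12.11 for Papss2, across both groups, and 11.53 to 12.46 for Ces2a, below both. Alas1, the first enzyme of heme synthesis, read 13.91, 13.94 and 13.97 in hCAR/hPXR livers, against 13.57, 13.84 and 12.99 in WT livers (0.48 ± 0.39, or 0.24 without WT replicate 3). The conjugating enzymes showed less. Of 20 glucuronidation and sulfation enzymes, 5 lay above without overlap and 0 below (median 0.16, or 0.03 without hCAR/hPXR replicate 3), with Ugt2b35 at 0.50 ± 0.20 (0.30 without hCAR/hPXR replicate 3) and Ugt2b34 at 0.36 ± 0.21. Of 20 glutathione S-transferases, 2 lay above and 0 below (median 0.07, between 0.03 without hCAR/hPXR replicate 2 and 0.11 without hCAR/hPXR replicate 3): Gstt3 (1.05 ± 0.37) and Mgst2 (1.25 ± 0.48). Mgst2 read 7.24, 7.14 and 7.99 in hCAR/hPXR livers, against 7.08, 5.63 and 5.91 in WT livers, so WT replicate 1 came close to the hCAR/hPXR range.

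Targets of other stress receptors were also placed above WT in part. Cyp1a1, the classical target of the aryl hydrocarbon receptor, read 8.71, 6.99 and 11.68 in hCAR/hPXR livers, against 8.18, 5.77 and 5.96 in WT livers. These groups overlapped, and the difference of 2.49 ± 0.74 (limma adjusted p = 0.276) was 1.21 without hCAR/hPXR replicate 3. It was 3.56 without hCAR/hPXR replicate 2 and then called (limma adjusted p = 0.0211). Corn oil signals were 5.26 to 5.76 in hCAR/hPXR livers and 5.63 to 6.05 in WT livers. Tiparp, a target of the same receptor, was at -0.36 ± 0.28 (-0.16 without WT replicate 1, -0.11 without hCAR/hPXR replicate 2 and -0.56 without hCAR/hPXR replicate 3). Its other probe sets, above the array median on all 30 arrays, gave -0.04 and 0.09. Among 19 targets of NRF2, the factor that answers oxidative stress, 16 had positive differences and 3 lay above without overlap, with a median of 0.30. The median was 0.12 without hCAR/hPXR replicate 2 and 0.47 without hCAR/hPXR replicate 3. Under corn oil it was 0.22, with 7 of 19 above and 1 below. The carbonyl reductase gene Cbr3 read 11.81, 12.67 and 12.22 in hCAR/hPXR livers, against 10.42, 10.47 and 11.61 in WT livers. WT replicate 3 lay just under the lowest hCAR/hPXR array, and the difference was 1.40 ± 0.38 (limma adjusted p = 0.22), next to 0.68 in corn oil livers. The quinone reductase gene Nqo1 read 9.37, 9.71 and 10.82 in hCAR/hPXR livers, against 8.42, 9.16 and 9.26 in WT livers (1.02 ± 0.36, limma adjusted p = 0.394), and the difference was 0.59 without hCAR/hPXR replicate 3. Srxn1, which repairs oxidized peroxiredoxins, read 11.70, 11.79 and 11.37 in hCAR/hPXR livers, against 11.34, 10.15 and 10.52 in WT livers (0.95 ± 0.25, limma adjusted p = 0.214), and its other probe sets gave 0.21, 1.33 and 0.96. Without WT replicate 1 it was called (1.28, limma adjusted p = 0.0252). In Srxn1, as in Cyp2b10, Mgst2 and Cyp1a1, WT replicate 1 was the highest WT array. The export pump gene Abcc4 (1.44 ± 0.59, between 0.75 without hCAR/hPXR replicate 2 and 2.18 without hCAR/hPXR replicate 3) and the heme-degrading Hmox1 (1.37 ± 0.55) overlapped.

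**Figure D3:**
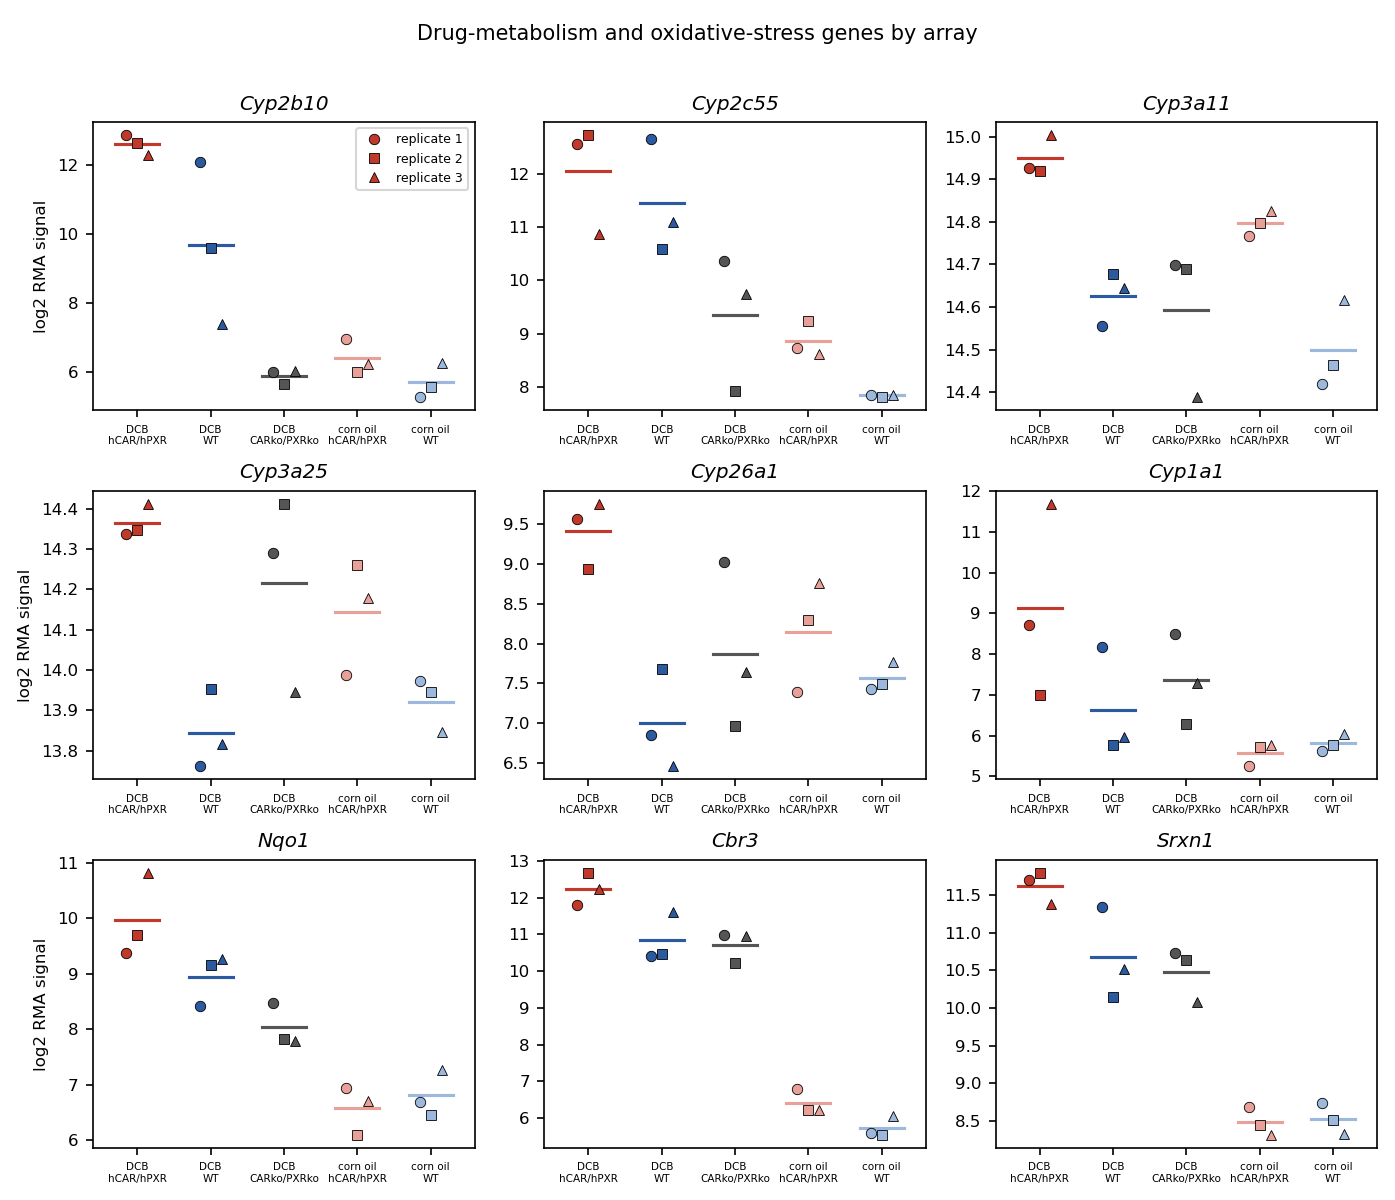
Signal of 9 drug-metabolism and oxidative-stress genes on each array (log2 RMA signal), with the group mean as a line and the replicate given by the symbol shape. Under DCB, WT replicate 1 is close to the hCAR/hPXR arrays in Cyp2b10, Cyp2c55, Cyp1a1 and Srxn1. Cyp3a25 and Cyp26a1 separate hCAR/hPXR from WT on every DCB array, whereas the corn oil arrays of Cyp26a1 overlap.

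Genes of secreted plasma proteins lay below WT as a block, with small differences. Each of the 28 tested complement and coagulation factors had a negative difference, 12 lay below the WT livers without overlap and 0 above, and 0 were called. Their median was -0.27 under DCB, against -0.03 over all genes, and it stayed between -0.31 and -0.23 with any 1 DCB array left out. In corn oil livers the median was -0.08. Cfi, a protease that shuts off complement, read 13.34, 13.10 and 13.25 in hCAR/hPXR livers, against 13.53, 13.51 and 13.73 in WT livers (-0.36 ± 0.10, limma adjusted p = 0.259). C8a, part of the membrane attack complex, read 12.37, 12.31 and 11.76 in hCAR/hPXR livers, against 12.97, 12.66 and 12.88 in WT livers (-0.69 ± 0.22). The clotting factor genes F11 and F2 were at -0.87 ± 0.34 and -0.24 ± 0.10, both without overlap. Ahsg, the gene of the carrier protein fetuin, was at -0.37 ± 0.11 without overlap.

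The acute phase genes, which the liver switches on in inflammation, lay lower but were uneven. Of 21 tested, 7 lay below WT without overlap and 0 above, 17 were negative and the median was -0.39 (-0.25 without hCAR/hPXR replicate 2). Saa4 read 11.38, 11.21 and 9.59 in hCAR/hPXR livers, against 12.004, 12.21 and 12.004 in WT livers (-1.35 ± 0.35, limma adjusted p = 0.214), and its difference was -0.78 without hCAR/hPXR replicate 3. The inducible serum amyloid gene Saa1, named after its values were seen, read 11.38, 8.15 and 14.22 in hCAR/hPXR livers, against 13.43, 13.91 and 13.44 in WT livers. Its hCAR/hPXR arrays lay on both sides of the WT range, so the difference of -2.34 ± 1.10 averages over livers that lay far apart. Saa2, a near-identical relative also named after its values were seen, had the same order of arrays and a difference of -2.40 ± 1.06. Without hCAR/hPXR replicate 2 these differences were -0.79 and -0.87, and without replicate 3 they were -3.83 and -4.20. Lcn2, an iron-trapping protein of the same response, read 9.83, 6.44 and 9.31 in hCAR/hPXR livers, against 10.87, 10.88 and 9.88 in WT livers (-2.02 ± 0.78, or -0.97 without hCAR/hPXR replicate 2). Hp and Fga, of haptoglobin and fibrinogen, were at -0.24 ± 0.09 and -0.30 ± 0.11 without overlap, and Fga was at -0.20 without WT replicate 1. Orm3 had the opposite sign at 1.51 ± 0.51, with overlap (0.86 without hCAR/hPXR replicate 3).

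**Figure D4:**
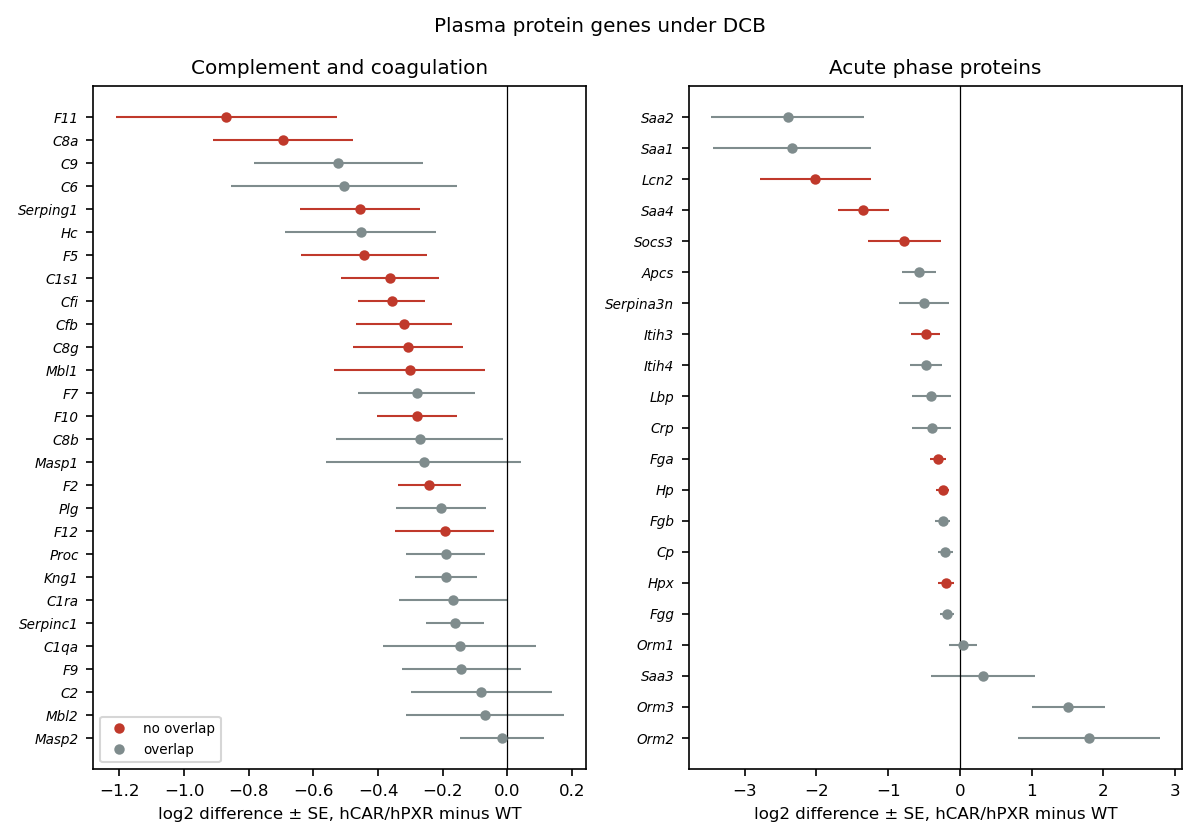
Difference between hCAR/hPXR and WT livers under DCB (log2 ± SE, 3 arrays each) for 28 complement and coagulation genes and 21 acute phase genes, with genes whose arrays do not overlap in red. Every complement and coagulation gene lies left of 0, and the acute phase genes run on both sides with Saa1 and Saa2 carrying the widest errors among the low ones.

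Several hormone-linked genes lay far below WT without being called. Hsd17b6, which converts androgen metabolites, read 9.41, 9.88 and 8.64 in hCAR/hPXR livers, against 11.26, 11.46 and 12.22 in WT livers, a difference of -2.34 ± 0.60 (limma adjusted p = 0.214). Under corn oil the groups overlapped, with a difference of 1.20 and signals of 12.26, 11.70 and 11.53 in hCAR/hPXR livers and 9.06, 10.68 and 12.17 in WT livers. Hsd3b5, a male-biased steroid dehydrogenase, read 7.32, 9.45 and 7.31 in hCAR/hPXR livers, against 11.25, 10.99 and 10.10 in WT livers. Its difference of -2.76 ± 1.56 was the lowest of all genes after the receptor genes, with a wide error. Stat5b, which carries the growth hormone signal that sets such male patterns, was at -0.56 ± 0.14 without overlap, and was called without hCAR/hPXR replicate 2 (-0.74, limma adjusted p = 0.0226). Its probe sets disagreed, and the other one, above the array median on all 30 arrays, gave 0.20. The 16 steroid enzymes as a list had a median of -0.00, with 3 below and 0 above, and of -0.16 without hCAR/hPXR replicate 3. Of 15 male-biased growth hormone pattern genes, 2 lay outside the WT range each way (median 0.08, between -0.25 without WT replicate 3 and 0.21 without WT replicate 1, and -0.08 without hCAR/hPXR replicate 3). Of 13 glucocorticoid-responsive genes, 3 lay below WT and 0 above (median -0.50, between -1.06 without WT replicate 2 and -0.26 without WT replicate 3). Klf9, a transcription factor gene induced by glucocorticoid, read 11.15, 11.70 and 10.80 in hCAR/hPXR livers, against 12.21, 12.19 and 12.68 in WT livers (-1.14 ± 0.29, limma adjusted p = 0.214). Zbtb16, another, read 7.22, 6.97 and 6.57 in hCAR/hPXR livers, against 8.16, 8.26 and 8.19 in WT livers (-1.29 ± 0.34, limma adjusted p = 0.214). Its other probe sets gave -1.52 and -0.36. The clock output genes Dbp and Tef were at -1.48 ± 0.74 and -0.67 ± 0.29, without overlap. Under corn oil they were at -0.52 and -0.39. Of 16 clock genes, 12 had negative and 4 positive differences, and 2 lay below WT and 0 above. Their median was -0.32, between -0.49 without WT replicate 1 and -0.22 without hCAR/hPXR replicate 3. It was -0.41 under corn oil, where 4 lay below and 0 above.

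Zonation genes split in opposite directions. Of 12 genes of hepatocytes around the central vein, 4 lay above WT and 0 below (median 0.32), and of 8 genes of hepatocytes around the portal vein, 3 lay below and 0 above (median -0.34). Without WT replicate 1 the median around the central vein was 0.13, and without hCAR/hPXR replicate 2 that around the portal vein was -0.21. Under corn oil the medians were -0.03 and 0.01. Oat, which breaks down ornithine around the central vein, read 13.55, 13.19 and 13.35 in hCAR/hPXR livers, against 10.18, 12.71 and 12.16 in WT livers (1.68 ± 0.46, limma adjusted p = 0.219). Glul, the glutamine synthetase of the same cells, read 12.34, 12.27 and 12.36 in hCAR/hPXR livers, against 10.46, 12.83 and 11.75 in WT livers. WT replicate 1 was the lowest array for both genes. Without WT replicate 1 the difference was 0.93 for Oat and 0.03 for Glul. On the portal side, Cyp2f2 was at -0.53 ± 0.17 (-0.27 without hCAR/hPXR replicate 3) and Cdh1, the cell adhesion gene of E-cadherin, at -0.86 ± 0.36, both without overlap.

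Growth and protein turnover gave mixed pictures. Gadd45a, a relative of Gadd45b, was 1.03 ± 0.34 higher with overlap. Egfr, the growth factor receptor of hepatocytes, read 8.99, 10.61 and 10.59 in hCAR/hPXR livers, against 11.68, 11.67 and 11.16 in WT livers (-1.44 ± 0.50, or -0.90 without hCAR/hPXR replicate 1). Its probe sets disagreed, with 5 others above the array median at -1.01, -0.47, -0.18, -0.09 and 0.00. Egr1 was at -2.04 ± 0.82, but this rested on WT replicate 1, which read 11.85 while the other WT arrays read 7.90 and 8.43, and the difference was -0.81 without it. Of 24 cell cycle genes, 19 had negative differences, 1 lay above and 2 below, and the median was -0.23, between -0.43 without hCAR/hPXR replicate 1 and -0.11 without hCAR/hPXR replicate 3. The replication factor Mcm10 (-1.41 ± 0.36) and the mitotic kinase Cdk1 (-0.69 ± 0.31) lay lower, the second with overlap, whereas Foxm1, which drives mitotic genes, was 0.27 ± 0.12 higher. Another Foxm1 probe set, above the array median on all 30 arrays, gave 0.06. For 28 of 31 proteasome subunits the difference was positive, with 5 above, 0 below and a median of 0.19, or 0.03 without WT replicate 3. Psmd11 (0.31 ± 0.10) and Psmd7 (0.36 ± 0.15, or 0.21 without WT replicate 3) were the members with the smallest p. Of 13 genes of hepcidin and iron handling, 9 had positive and 4 negative differences. Without overlap, 3 lay above WT and 2 below. The list median was 0.05 (0.08 without hCAR/hPXR replicate 3 and 0.21 without WT replicate 3). Tfrc, which encodes the transferrin receptor, and Hamp, which encodes the hormone hepcidin, were among those above. Tfrc read 12.05, 11.72 and 11.37 in hCAR/hPXR livers, against 10.80, 10.83 and 10.45 in WT livers (1.02 ± 0.45). Hamp was 0.71 ± 0.31 higher under DCB (0.45 without WT replicate 3 and 0.47 without hCAR/hPXR replicate 3) and 1.58 higher under corn oil.

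For genes of cholesterol synthesis and of fatty acid synthesis the sign depended on single arrays. For 18 cholesterol genes the median was 0.27, with 0 members outside the WT range on all arrays, and leaving out 1 DCB array took it to between -0.20 and 0.73. For 18 fatty acid genes the median was -0.19, 1 lay above WT and 0 below, and the same range was -0.65 to 0.48. In both lists the lowest median came without hCAR/hPXR replicate 1 and the highest without hCAR/hPXR replicate 3.

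Markers of stellate cells and of Kupffer cells lay somewhat lower in the hCAR/hPXR livers, and 0 markers of any cell type were called. All 7 lymphocyte markers were negative (median -0.15, or -0.02 without hCAR/hPXR replicate 1). Of 13 endothelial markers, 5 were positive and 8 negative (median -0.11, or -0.02 without hCAR/hPXR replicate 3). Of 4 neutrophil markers, 3 were positive and 1 negative (median 0.02, or -0.16 without hCAR/hPXR replicate 3). In bulk tissue, fewer cells of a type and less RNA per cell cannot be told apart. Of 15 stellate cell and fibroblast markers, 11 had negative differences and 4 lay below without overlap, and the median was -0.41 (-0.25 without hCAR/hPXR replicate 3 and -0.20 without WT replicate 3). Their summed log2 signal was 119.3 to 125.8 in hCAR/hPXR livers and 126.6 to 132.3 in WT livers. Lrat, which stores vitamin A in stellate cells, read 7.64, 7.96 and 6.20 in hCAR/hPXR livers, against 8.22, 8.29 and 8.44 in WT livers (-1.05 ± 0.34), and its difference was -0.52 without hCAR/hPXR replicate 3. Another Lrat probe set gave -0.47. Of 16 Kupffer cell and macrophage markers, 14 were negative and 2 lay below without overlap (median -0.15, between -0.30 without hCAR/hPXR replicate 3 and -0.04 without WT replicate 1), with a summed signal of 133.9 to 140.9 in hCAR/hPXR livers and 137.3 to 146.4 in WT livers. Csf1r, the growth factor receptor of macrophages, was at -0.53 ± 0.27, and Clec4f, found on Kupffer cells, at -0.29 ± 0.21. Other Csf1r probe sets, above the array median on all 30 arrays, gave -0.25 and -0.14. In corn oil livers the Kupffer list had a median of 0.34, with 10 of 16 markers above WT, so its sign was opposite at rest. For skeletal muscle genes, which mark carried-over tissue, the summed signal of 15 genes was 81.8 to 82.4 in hCAR/hPXR livers and 79.9 to 81.1 in WT livers, a mean near the array medians in each. What part these shifts have in the differences above was not tested.

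**Figure D5:**
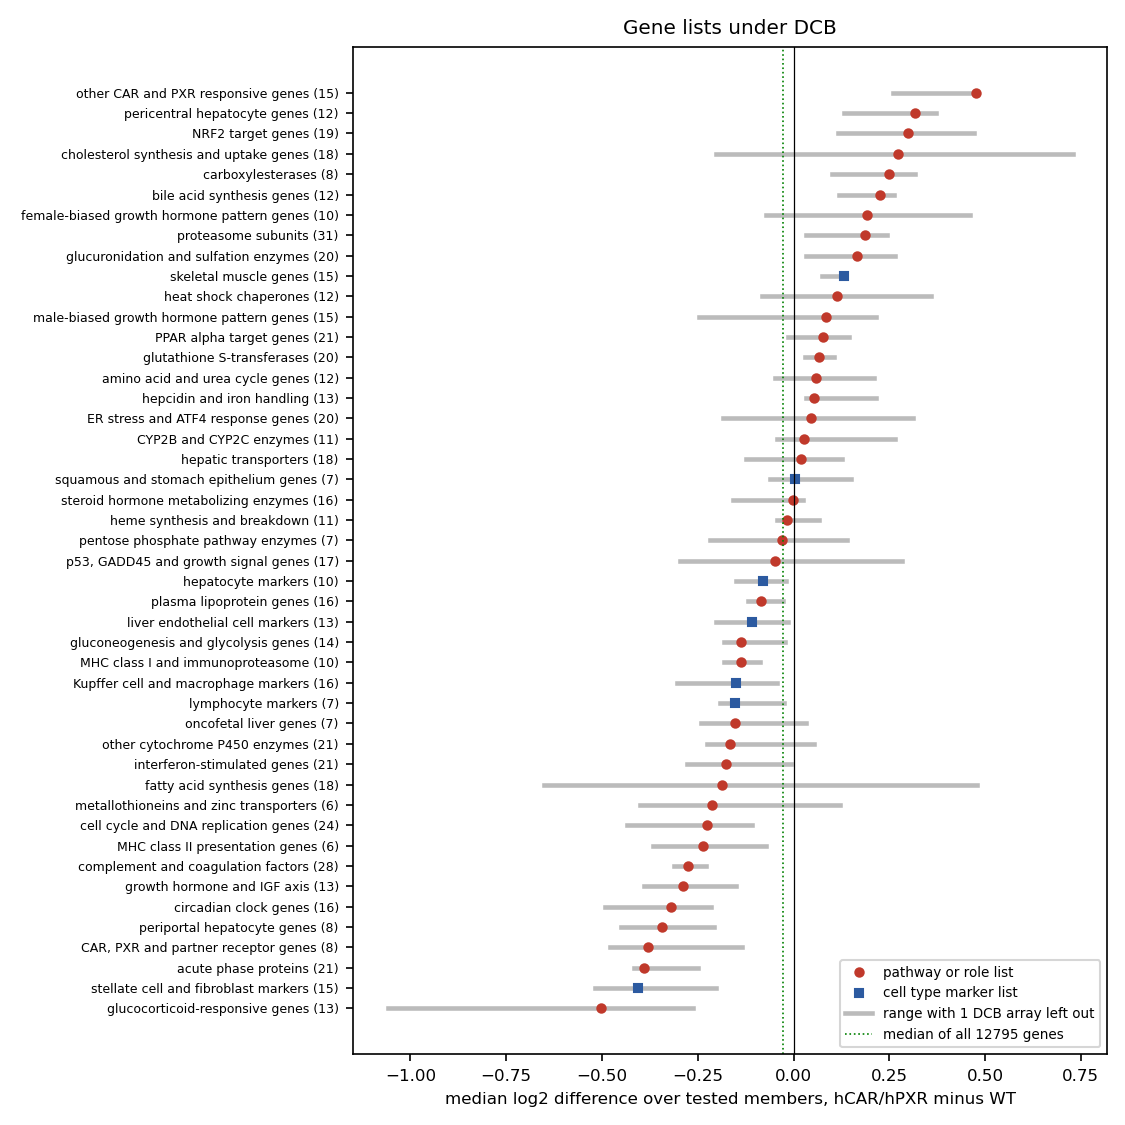
Median log2 difference between hCAR/hPXR and WT livers under DCB for gene lists with at least 6 tested members (number in brackets), with the range of the median when 1 DCB array is left out as a grey bar. Complement and coagulation genes keep a narrow range below 0, while cholesterol and fatty acid synthesis genes span both signs.

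The last question was whether the genotype difference under DCB differed from that under corn oil, which is also whether DCB acted differently in the genotypes. With limma 0 of 12795 genes were called in this comparison, the lowest adjusted p was 0.9998, and 398 genes (3.11%), by the same test, had an unadjusted p under 0.05, 160 (1.25%) positive and 238 (1.86%) negative. Leaving out any of the 12 arrays left the count at 0. This comparison uses the same DCB arrays as the direct contrast. In corn oil livers alone, 3 genes (0.0234%) were called, and they were Nr1i3, Nr1i2 and Tmem223, as under DCB. At an unadjusted limma p under 0.05 there were 185 genes (1.45%) under corn oil, 102 (0.797%) higher and 83 (0.649%) lower in hCAR/hPXR livers. This count and the 1061 under DCB rest on a spread shared by all 10 groups. With only the groups compared in the fit, the counts were 596 under corn oil and 582 under DCB. Across all genes, 35 lay above WT without overlap under both treatments, 50 lay below under both, and 50 lay on opposite sides. Of the genes with the smallest p in the difference from corn oil, Hsd17b6 had the largest size (-3.54 ± 0.85, limma adjusted p = 0.9998). Guca1b (-0.71 ± 0.16), Pik3c3 (-0.66 ± 0.16), Arhgap18 (-0.85 ± 0.23) and Xirp1 were the other negative ones. Xirp1 was above the array median on 3 of 30 arrays, so no size is given for it. The positive ones were Ciapin1 (0.82 ± 0.21), Mtbp (0.88 ± 0.23), Iqsec2 (0.74 ± 0.21), 4930526I15Rik (0.77 ± 0.22) and Exosc8 (1.20 ± 0.37). Ciapin1, which helps build iron-sulfur proteins, read 10.18, 9.92 and 10.39 in hCAR/hPXR livers, against 9.79, 9.74 and 9.48 in WT livers. Its other probe sets, above the array median on all 30 arrays, gave 0.77, 0.40 and -0.23 under DCB. Exosc8, part of the RNA-degrading exosome, read 10.10, 9.71 and 10.75 in hCAR/hPXR livers, against 9.21, 9.25 and 9.37 in WT livers. For Cyp2b10 the difference from corn oil was 2.22 ± 1.09 and for Cyp26a1 it was 1.84 ± 0.70.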

How the data were processed

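RNA of mouse liver was hybridised to Affymetrix arrays after labelling with the 3'IVT Express kit, per the labels' protocols. The deposited values are log2 probe set signals summarised by RMA, per the submitters' processing notes; its version is not given in the sources used here. Of 45037 probe sets, 34945 carried 1 gene symbol in GEO's platform annotation, 932 several and 9160 none. Each of 18193 genes was represented by its single-gene probe set with the highest mean over the 30 arrays, and the 12795 above the array median on at least 3 arrays were tested. limma 3.58.1 in R 4.3.3 was fitted to all 10 groups (20 residual degrees of freedom) with eBayes and Benjamini-Hochberg adjustment. Symbols and gene order came from RefSeq GRCm38.p6. The members and gene lists were chosen with earlier results of these data known. Named were all called genes, Nr1i3, Nr1i2, Cyp2b10, Cyp3a11, Cyp2c55, Cyp1a1 and Cbr3, up to 4 genes per list by smallest p, and 5 each way in the difference from corn oil; others are marked. The fits were tested on simulated data. Deviations of same-numbered corn oil arrays of the genotypes had correlations of 0.13, 0.106 and 0.452, and the DCB arrays of the genotypes did not deviate together. Only arrays with the same number in the labels were correlated, so these values cannot show a pairing. For the DCB WT arrays they were -0.0358, -0.0451 and -0.333 with corn oil hCAR/hPXR arrays. With corn oil WT arrays they were 0.00173, 0.0216 and -0.136. For the DCB hCAR/hPXR arrays they were 0.398, 0.174 and 0.353 with corn oil WT arrays, and 0.0586, 0.191 and 0.349 with corn oil hCAR/hPXR arrays. Alternatives varied the filter, normalization, centring, probe set rule, variance model, array weights, samples, block and threshold. The labels give no scan dates, so batches were not tested.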

Additional observations from a re-analysis of the deposited data

Results flagged for a closer look

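A probe set with no annotated gene, 1443137_at, was called in a separate fit of the 3084 probe sets without a gene and the 616 with several, data that the comparisons of genes do not use. It read 7.72, 7.44 and 7.57 in hCAR/hPXR livers and 6.53, 4.87 and 4.25 in WT livers under DCB. The difference was 2.36 ± 0.37 (limma adjusted p = 0.00721). WT replicate 1, the highest WT array for Cyp2b10 and Cyp1a1, was also the highest here. Corn oil arrays read 3.88 to 4.50 in hCAR/hPXR livers and 4.12 to 4.72 in WT livers, and the DCB-treated CARko/PXRko livers read 3.93 to 4.34, so both DCB groups with receptors lay at or above those levels except WT replicate 3.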

How the results depend on the processing

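The count of 5 calls under DCB became 111 with array weights (42 of them higher; this fit gave convergence warnings, which bear on each value with array weights here), 2 with only the groups compared in the fit and 3 with an added 2-fold threshold. It became 10 without the CARko/PXRko groups, an alternative chosen after seeing the data, and lay between 3 and 45 with 1 array left out. After a further quantile normalization, 1 of 5 calls was higher, against 0 of 5, and 4 of the 5 were shared, Pik3c3 being lost. The 3 calls under corn oil became 10 with array weights. The replicate block, by the numbers in the labels, left the counts at 5, 3 and 0. Deviations of same-numbered DCB arrays of the genotypes had correlations of 0.111, -0.0692 and -0.0626. The sign of Cyp3a13 turned with array weights (-0.122) and without hCAR/hPXR replicate 3 (its values with 1 array left out ran between -0.0527 and 0.598), and that of Iqsec2 (-0.0642) with the mean of its probe sets. Over the 84 genes named, 1363 of 1421 values kept direction and side of the threshold, 14 lost a call and 41 gained one. Uox and Pik3c3 each lost theirs with only the groups compared, and Tmem223 did too (adjusted p = 0.0854 by limma). Uox also lost its call without the CARko/PXRko groups (adjusted p = 0.0621 by limma), and both lost theirs with the added 2-fold threshold. The cause was not tested. With 3 arrays per group the precision is limited by their number, signals under the array median give lower bounds, and those near the array maximum compress differences.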

Other observations

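Immune genes differed from the pattern under corn oil. All 6 tested genes of MHC class II presentation, which shows antigens on macrophages and B cells, had negative differences under DCB with overlap (median -0.24, or -0.07 without WT replicate 3), against a median of 0.82 under corn oil, where 2 lay above WT. H2-Aa was at -0.33 under DCB and 0.90 under corn oil, and H2-Ab1 at -0.35 and 1.05. Without WT replicate 3 their DCB differences were -0.14 and -0.06. For 21 interferon-stimulated genes the medians were -0.18 under DCB, with 0 members outside the WT range, and 0.20 under corn oil, with 6 above. The DCB median was -0.01 without hCAR/hPXR replicate 3. None of these genes was called in either comparison or in the difference between them.

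Some metabolic lists lay near the median of all genes, whereas bile acid synthesis genes lay somewhat above it. Of 21 PPAR alpha targets, which burn fatty acids, 2 lay above WT and 0 below (median 0.08, between -0.01 without WT replicate 2 and 0.14 without WT replicate 3, and 0.12 without hCAR/hPXR replicate 3). Of 12 bile acid synthesis genes, 2 lay above and 1 below (median 0.23, or 0.12 without WT replicate 1). Of 18 hepatic transporters, 2 lay each way (median 0.02, between -0.12 without WT replicate 1 and 0.13 without hCAR/hPXR replicate 3), and of 16 plasma lipoprotein genes, 1 lay above and 2 below (median -0.08, or -0.03 without WT replicate 3 and -0.05 without hCAR/hPXR replicate 3). Of 20 ER stress and ATF4 response genes, 2 lay above and 1 below (median 0.04, between -0.18 without hCAR/hPXR replicate 1 and 0.31 without WT replicate 1, and 0.22 without hCAR/hPXR replicate 3). Atf4 itself, which encodes a stress-induced transcription factor, read 11.48, 10.98 and 11.60 in hCAR/hPXR livers, against 10.72, 10.70 and 10.69 in WT livers (0.65 ± 0.15, limma adjusted p = 0.204, or 0.0166 without hCAR/hPXR replicate 2), whereas Xbp1, which drives the endoplasmic reticulum stress response, was at -0.38 ± 0.14 without overlap.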
